A study of Mus musculus with 12 samples.

Results

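Retinal explants of 129 mice after 3 days in culture were compared with intact retina of the same strain, on 4 of the 12 arrays of the series. The 4 arrays were taken by their labels, as the 2 of 129 explants cultured without CHIR99021 and the 2 of 129 intact retina. The other 8 arrays entered the fit for the estimate of spread. They held 129 explants with CHIR99021 (an inhibitor of the kinase GSK3) and the same 3 conditions in B6 mice. B6 was otherwise used only to test where the change in 129 differed from that in B6, and for levels set beside 129. The study set the 2 strains side by side for the response of their Müller glia to damage, above all for proliferation.

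The explants are called 129 3DIV here (3 days in vitro), and the intact tissue is called 129 normal. Mice of both groups were of the strain given as 129X1/SvJJmsSlc and were 10 weeks old, with no transgene or mutation named. In both groups the neural retina was freed of cornea, sclera, lens, iris, ciliary body and pigmented epithelium. The 129 3DIV retina was kept as a whole explant, with the vehicle of CHIR99021 (DMSO) and the DNA label EdU as the methods give for control explants, and its label calls it damaged retina. Explantation cuts the optic nerve and parts the photoreceptors from the pigmented epithelium. The 129 normal retina was not cultured. As a model, the explant has no blood flow and no pigmented epithelium, and time after isolation, culture medium, vehicle, EdU and axotomy differ from intact tissue all at once and cannot be told apart. The 2 arrays of a group carry labels of biological replicates, and the methods give 2 retinas per condition without saying whether they came from 1 animal, so the p-values measure only the spread between these samples.

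Light is converted into a neural signal by rods and cones, which pass it to bipolar, horizontal and amacrine cells and then to ganglion cells, whose axons form the optic nerve. Müller glia span the neural layers and take up glutamate, recycle retinoids, buffer potassium and feed the neurons. After damage they turn on intermediate filaments and acute phase genes, a state known as gliosis, and in fish they also re-enter the cell cycle and replace lost neurons, whereas in mice they seldom divide. Microglia are the resident macrophages of the retina. RNA of whole tissue was measured, so a lower value can mean fewer cells of a type or less RNA per cell, and these cannot be told apart.

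The values were probe set intensities from Affymetrix Mouse Genome 430 2.0 arrays, summarised by the authors with RMA, which removes background and brings all arrays to 1 distribution. They were taken to log2, and each difference is the mean of 129 3DIV minus the mean of 129 normal with its standard error (SE, n = 2 arrays each), from a limma model with a mean for each of 6 groups. The call of higher or lower was made where the p, adjusted by Benjamini-Hochberg over 45037 probe sets, was under 0.05. For some genes the arrays of the groups are said not to overlap, or to lie wholly above or below. The share of all genes with such a separation was not counted, so it adds nothing to the call. The table holds no detection calls, so that low intensities were not told apart from background, and folds of genes that are low in 1 group are then compressed.

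The 4 arrays fell by their labels. Between the groups the correlation of log2 intensities over all probe sets was 0.9721 to 0.9746, against 0.9978 between the 129 3DIV arrays and 0.9966 between the 129 normal arrays. A single array stood apart. The 129 normal replicate 2 held lens and pigmented epithelium transcripts far above replicate 1, and 85 probe sets differed more than 2-fold between the 129 normal arrays, against 5 between the 129 3DIV arrays. The summed intensity of 16 lens genes was 545 and 563 in 129 3DIV, and 1481 and 31380 in 129 normal. It was 629 and 616 in B6 3DIV, and 584 and 677 in B6 normal. Replicate 1 of 129 normal was thus also above 129 3DIV and both B6 groups. For 20 genes of pigmented epithelium and melanocytes the sum was 7530 and 7415 in 129 3DIV, and 13707 and 20462 in 129 normal. The dissection is labelled as free of both tissues. The genes named from these lists, and both lists, are therefore also given without 129 normal replicate 2. The sum of 38 microglia and macrophage genes was 6369.5 and 6023 in 129 3DIV, against 2754 and 2729 in 129 normal. For 21 endothelial and mural genes it was 5801 and 5608 in 129 3DIV, and 4141 and 4070.4 in 129 normal. Erythrocyte and T cell lists stayed low on all 4 arrays, at most 118 over 5 genes and 323 over 7 genes. The 3′ over 5′ ratio of the Actb control probe sets was 1.62 and 1.70 in 129 3DIV, against 2.05 and 2.07 in 129 normal, and that of the Gapdh control was 0.982 and 1.01 in 129 3DIV, against 1.01 and 0.983 in 129 normal. Whether these differences had a part in the results below was not tested.

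**Figure D1:**
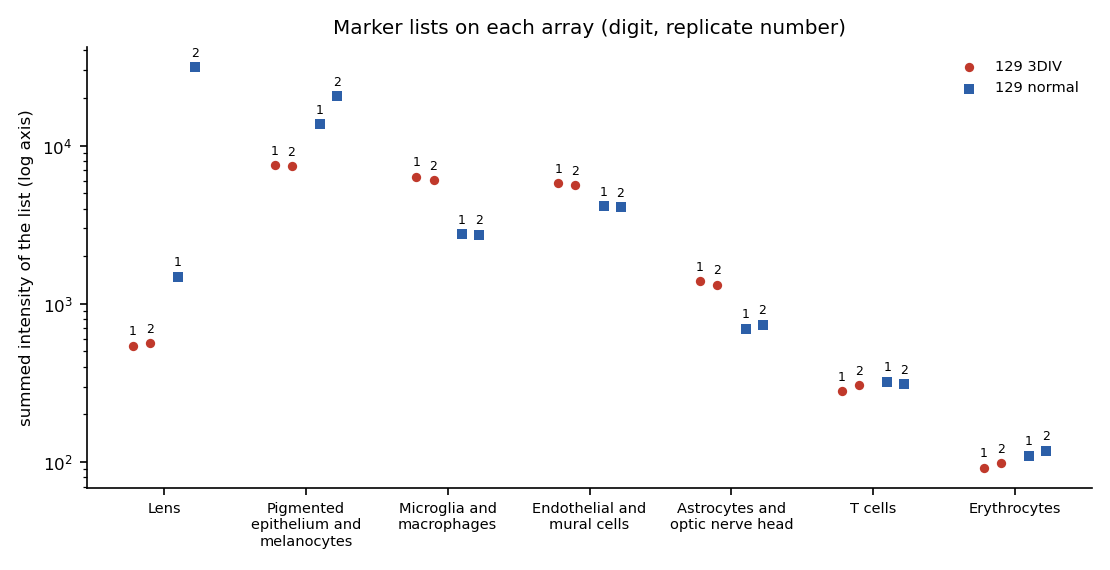
Summed intensity (log axis) of 7 marker lists on each of the 4 arrays, with red circles for 129 3DIV, blue squares for 129 normal and the replicate number above each point. The lens list reached 31380 on 129 normal replicate 2 alone, and the microglia list was at 6023 or more on both 129 3DIV arrays.

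The change covered a large part of the transcriptome. Of 45037 probe sets, 6640 (14.7%) were called higher and 7144 (15.9%) lower in 129 3DIV. A change of at least 2-fold was found in 1317 higher probe sets (2.92%) and in 783 lower ones (1.74%). With 1 probe set for each of 18193 genes, 3482 genes (19.1%) were higher and 3096 (17%) were lower, and the median log2 difference over all genes was -0.01. Beyond 16-fold there were 59 higher probe sets and 14 lower ones. RMA sets the arrays to a common distribution, and the scale mattered for small changes. When the arrays were centred on 7 housekeeping genes, of which B2m, Rplp0 and Actb were themselves higher in 129 3DIV by 3.62, 1.58 and 0.81, the median over all probe sets moved by -0.74, whereas after cyclic loess it was -0.0033. Small positive values therefore turned negative under that centring, and its medians and counts are given beside the lists concerned.

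The 10 genes with the largest rise were Gbp3, Lcn2, Steap4, Ifit1, Rtp4, Oasl2, Iigp1, Usp18, Gbp7 and Nlrc5, with log2 differences between 5.57 and 6.59. Lcn2, Steap4 and the others divide into acute phase genes and genes that interferon induces. Gbp7, a guanylate-binding protein, had intensities of 4895 and 4731 in 129 3DIV, against 106 and 94.9 in 129 normal. Rtp4, a receptor transporter protein that interferon induces, had 1861 and 1936 in 129 3DIV, against 29.2 and 20.9 in 129 normal. Both were dim on the intact arrays and bright on both explant arrays. The 10 with the largest fall were Ttr, Cryba1, Opn1sw, Cryaa, Crygs, Glb1l3, Rpe65, Rgr, Arr3 and Crygb, between -6.47 and -4.001 at the probe sets that stand for the genes, except that another probe set of Ttr fell by 6.75. They come from cones (Opn1sw, Arr3), pigmented epithelium (Ttr, Rpe65, Rgr) and lens (the crystallins). This order rested in part on 129 normal replicate 2. Without it the falls were smaller for Cryba1 (-3.65), Rgr (-3.46), Rpe65 (-3.42), Cryaa (-3.33), Crygs (-2.51) and Crygb (-1.57). Ttr was also smaller, at -5.60 against -6.25 with all arrays, and Glb1l3 slightly so, at -4.16 against -4.24. Opn1sw and Arr3 were not smaller, at -5.77 and -4.12. Glb1l3, a β-galactosidase-like gene, had 79.0 and 94.7 in 129 3DIV, against 1544 and 1726 in 129 normal.

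**Figure D2:**
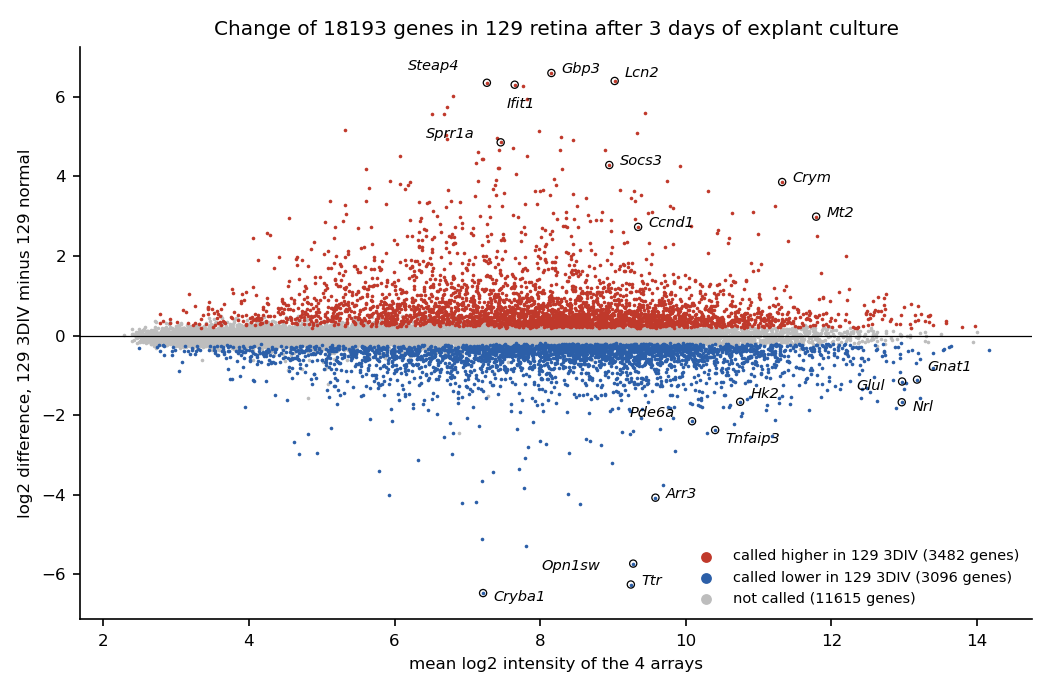
Log2 difference of 129 3DIV minus 129 normal (vertical) against mean log2 intensity of the 4 arrays (horizontal) for 18193 genes, with 3482 genes called higher in red, 3096 called lower in blue and the others in grey. The largest rises lie above 6, at Gbp3, Lcn2, Steap4 and Ifit1, and the largest falls at or below -5.73, at Opn1sw, Ttr and Cryba1.

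**Figure D3:**
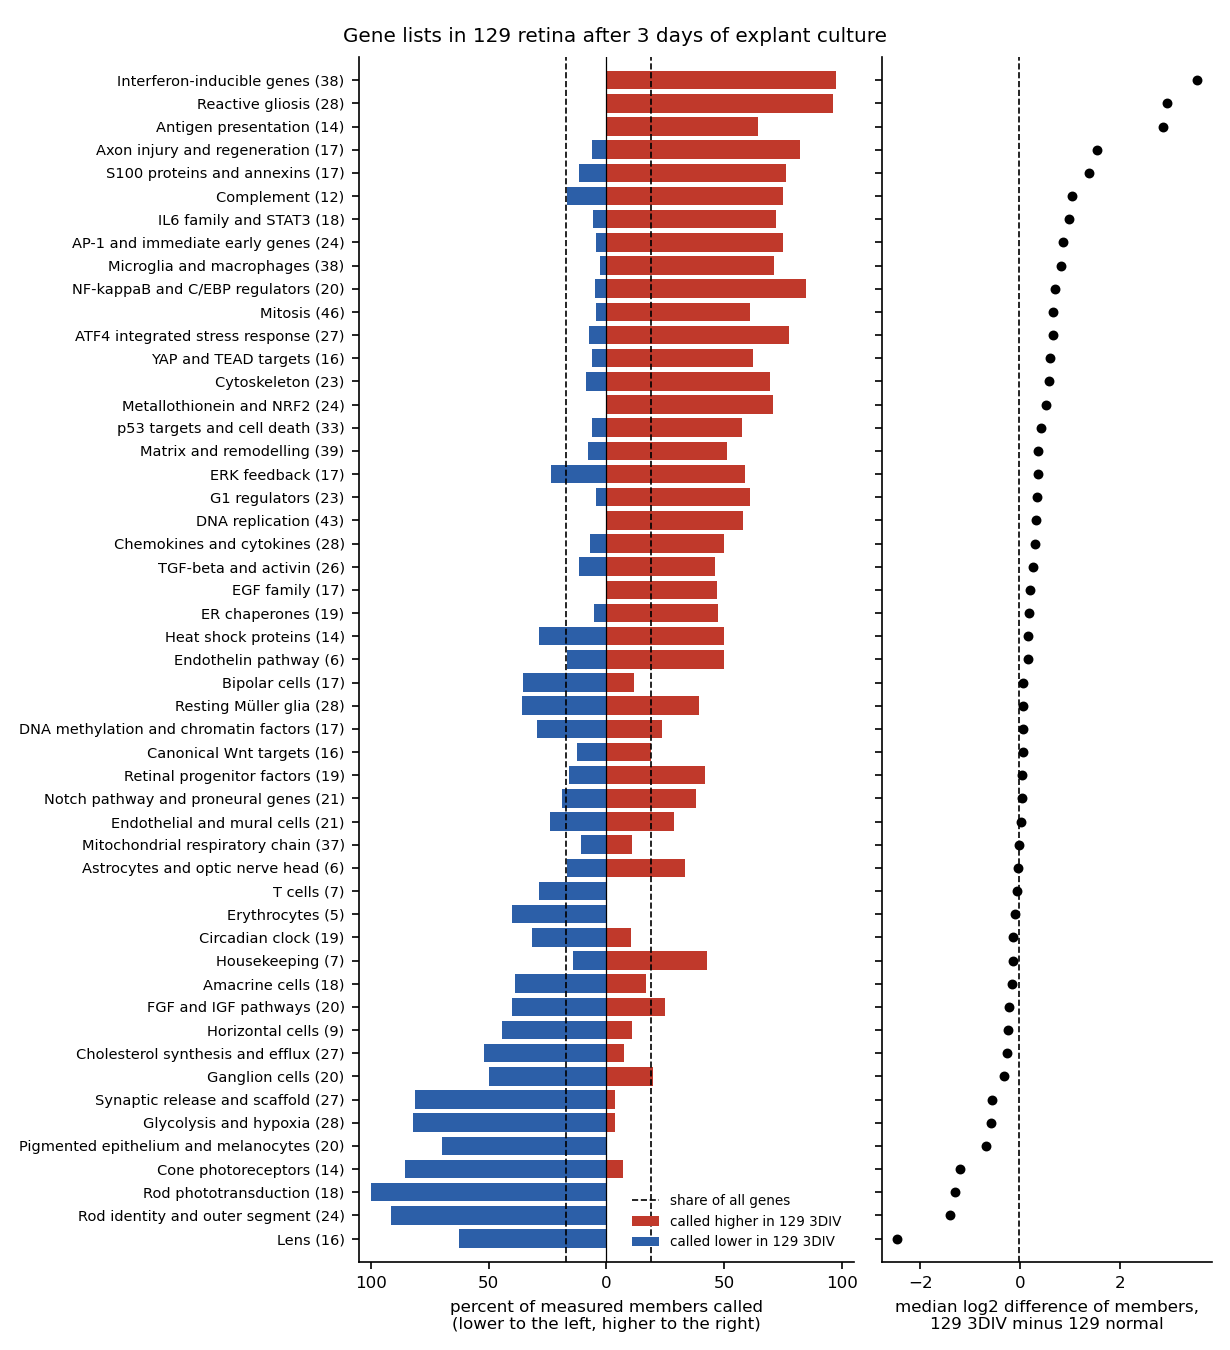
Left, bars give the percent of the measured members of each gene list (their number in brackets) that were called lower (blue, to the left) or higher (red, to the right) in 129 3DIV than in 129 normal, with dashed lines at the shares of all genes (17% and 19.1%). Right, points give the median log2 difference of the members, highest for interferon-inducible genes and reactive gliosis (3.55 and 2.95) and lowest for the lens, rod and cone lists (-2.46 to -1.20).

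The largest falls of any neuronal gene described here were in cones. Of 14 measured cone genes, 12 were lower and 1 was higher, with a median of -1.20. Opn1sw, the short-wavelength opsin, had 75.5 and 96.4 in 129 3DIV, against 4647 and 4395 in 129 normal. This was 53-fold lower (log2 difference -5.73 ± 0.33, adjusted p = 2.8e-07). Arr3, the cone arrestin that shuts off the opsin, had 166 and 210.5 in 129 3DIV, against 3251 and 3035 in 129 normal (log2 difference -4.07 ± 0.23, adjusted p = 3.2e-07). For Opn1mw, the medium-wavelength opsin, the values were 112 and 131 in 129 3DIV, against 881 and 1002 in 129 normal (log2 difference -2.95 ± 0.24, adjusted p = 3.8e-06). The groups were thus far apart for all 3 genes. Pde6h, the inhibitory subunit of cone phosphodiesterase, fell by 3.76 and Pde6c, its catalytic subunit, by 2.59, while Gnat2, the cone transducin, fell by 2.89 and Cngb3, a subunit of the cone channel, by 1.27. The exception was Gnb3, a G protein subunit of cones that ON bipolar cells also use, with 2946 and 3011 in 129 3DIV, against 1979.9 and 1996 in 129 normal (log2 difference 0.58 ± 0.07, adjusted p = 0.00013), whose difference was -0.16 after housekeeping centring.

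The rod genes fell together. All 18 measured members of the rod phototransduction list were lower, 16 of them by at least 2-fold, with a median of -1.30. Gnat1, the rod transducin, had 5851 and 6816 in 129 3DIV, against 13889 and 13285 in 129 normal (log2 difference -1.10 ± 0.11, adjusted p = 1.5e-05). Gnb1 and Gngt1, which complete that G protein, fell by 1.32 and 1.11. Pde6a, a catalytic subunit of rod phosphodiesterase, had 477 and 558 in 129 3DIV, against 2284 and 2299 in 129 normal (log2 difference -2.15 ± 0.10, adjusted p = 4.7e-08), and Pde6g, its inhibitory subunit, fell by 1.57. Both 129 3DIV arrays lay below both 129 normal arrays for each of these genes. Guca1a, a calcium sensor that turns guanylate cyclase back on after light, had 3709.7 and 4401 in 129 3DIV, against 14034 and 14410.5 in 129 normal (log2 difference -1.82 ± 0.08, adjusted p = 6.1e-08). Rgs9bp, the anchor of the transducin shut-off complex, fell by 1.86. Falls larger than in B6 were found for Cngb1, a subunit of the rod channel, and Gucy2e, a guanylate cyclase, which in 129 fell by 1.75 and 1.24 and differed from the B6 change by -0.75 and -1.04.

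Of 24 genes of rod identity and outer segment, 22 were lower and none was higher (median -1.41), in the same fit in which 19.1% of all genes were higher and 17% lower. Among the transcription factors, Nrl, which sets rod over cone fate, had 4308 and 4662 in 129 3DIV, against 15262 and 13404 in 129 normal (log2 difference -1.67 ± 0.11, adjusted p = 1e-06), and Crx, which drives photoreceptor genes, had 3131 and 3469 in 129 3DIV, against 7352 and 7109.9 in 129 normal (log2 difference -1.13 ± 0.09, adjusted p = 2.5e-06). Samd11, a photoreceptor repressor of the Polycomb type, fell by 1.79. Outer segment and ciliary genes fell as well. Rom1, a disc rim tetraspanin, fell by 1.64 and Fscn2, a photoreceptor fascin, by 2.64. Reep6, an endoplasmic reticulum protein that rods need, had 892 and 1066 in 129 3DIV, against 5465 and 5657 in 129 normal (log2 difference -2.51 ± 0.11, adjusted p = 5e-08). Nxnl1, the gene of rod-derived cone viability factor, fell by 2.33, Rdh12, a retinol dehydrogenase, fell by 1.94, and Abca4, the retinoid flippase of the discs, by 1.78. Rd3, which escorts guanylate cyclase, fell by 1.13. The fall of Prph2, the other disc rim tetraspanin, rested in size on a single array, with 169.8 and 166 in 129 3DIV, against 669 and 3520.0 in 129 normal (log2 difference -3.19 ± 0.65, adjusted p = 0.0033). The intact replicates differed 5.26-fold in this gene, and without 129 normal replicate 2 the difference was -1.99. The changes of Samd11 and Rd3 were larger than in B6, by -1.36 and -0.53.

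**Figure D4:**
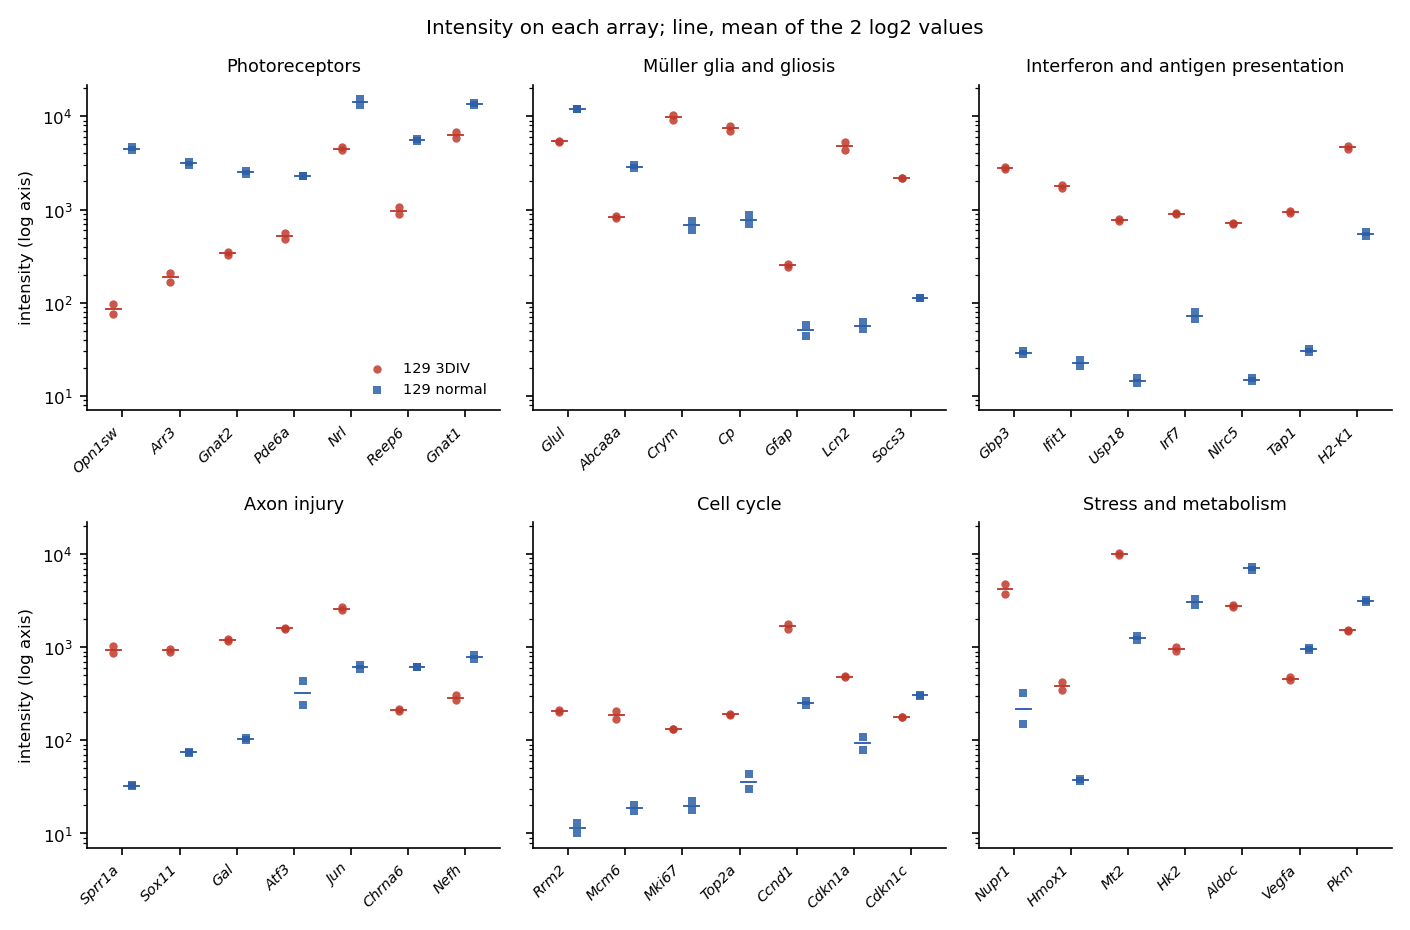
Intensity (log axis) of 7 genes in each of 6 panels (photoreceptors, Müller glia and gliosis, interferon and antigen presentation, axon injury, cell cycle, stress and metabolism) on each of the 4 arrays, with red circles for 129 3DIV left of blue squares for 129 normal and a line at the mean of the 2 log2 values. The groups do not overlap for any of the 42 genes shown, which were chosen with earlier results of these data known. The share of all genes without overlap was not counted. The 129 normal arrays differ visibly between themselves for Atf3 and Nupr1.

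CRX binds a short DNA core, and its letters were looked for in the stretch from 250 bases before to 50 bases after each transcription start, as given by RefSeq for GRCm38.p6. The motif searched was TAATCC, on both strands. It was in 2320 of 32851 windows (7.06%) and in 2199 of 27025 genes (8.14%). Among listed genes with a window, it was in 6 of 12 for rod phototransduction (50%), 7 of 21 for rod identity (33.3%) and 2 of 10 for cones (20%). A match describes the letters only, and no binding was measured. The windows of the 3 rod genes with the largest fall among those that hold the motif are shown, in the direction of the gene, with the motif on either strand in capitals. They are Guca1a at chr17:47400557-47400856 (minus strand), Samd11 at chr4:156255293-156255592 (minus strand) and Abca4 at chr3:122044210-122044509 (plus strand).
Guca1a: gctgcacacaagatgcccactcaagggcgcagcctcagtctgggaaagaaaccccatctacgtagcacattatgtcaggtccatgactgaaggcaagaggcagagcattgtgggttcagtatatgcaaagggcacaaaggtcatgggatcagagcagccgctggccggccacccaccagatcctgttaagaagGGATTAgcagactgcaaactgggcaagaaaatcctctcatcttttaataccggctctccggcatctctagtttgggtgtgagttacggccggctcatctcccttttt
Samd11: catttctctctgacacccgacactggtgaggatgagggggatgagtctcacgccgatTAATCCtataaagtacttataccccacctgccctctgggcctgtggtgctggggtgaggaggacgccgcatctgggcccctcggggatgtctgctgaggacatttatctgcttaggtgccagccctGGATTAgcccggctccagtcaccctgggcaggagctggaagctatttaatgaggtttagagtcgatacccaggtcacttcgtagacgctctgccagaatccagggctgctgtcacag
Abca4: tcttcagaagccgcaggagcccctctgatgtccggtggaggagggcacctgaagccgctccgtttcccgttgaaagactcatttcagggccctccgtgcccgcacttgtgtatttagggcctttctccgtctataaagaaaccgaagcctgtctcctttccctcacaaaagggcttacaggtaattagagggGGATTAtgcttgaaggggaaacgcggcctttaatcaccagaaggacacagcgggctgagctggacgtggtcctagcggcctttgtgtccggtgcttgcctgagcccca

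No interneuron list had a larger share of members called higher than all genes had (19.1%), with 11.8% of bipolar, 16.7% of amacrine and 11.1% of horizontal cell genes. Their shares called lower, at 35.3%, 38.9% and 44.4%, were above that of all genes (17%). Of 17 bipolar genes 2 were higher and 6 lower, none by 2-fold (median 0.07, and -0.67 with 0 higher and 17 lower after housekeeping centring). Otx2, a homeobox factor of photoreceptors and bipolar cells, had 2151 and 2355 in 129 3DIV, against 4208 and 3786 in 129 normal (log2 difference -0.83 ± 0.08, adjusted p = 1.4e-05). Vsx1 and Scgn, a homeobox factor and a calcium sensor of cone bipolar cells, fell by 0.59 and 0.54. Trpm1, the channel of ON bipolar cells, did not pass, with 50.6 and 48.2 in 129 3DIV, against 58.8 and 57.6 in 129 normal (log2 difference -0.24 ± 0.23, adjusted p = 0.5). These values lay under the lowest array median (68.8), so the probe set may be too dim to show a change. Pcp2, a regulator of G protein signalling in the same cells, was bright and did not pass either. It had 4870.2 and 4831 in 129 3DIV, against 4538 and 4723 in 129 normal (log2 difference 0.07 ± 0.10, adjusted p = 0.67) and -0.67 after housekeeping centring. Of 18 amacrine genes 3 were higher and 7 lower (median -0.15). Calb2, the calcium-binding protein calretinin, fell by 1.20, and Th, tyrosine hydroxylase of the dopaminergic cells, had 66.1 and 75.1 in 129 3DIV, against 123 and 126 in 129 normal (log2 difference -0.82 ± 0.08, adjusted p = 2.1e-05). Tac1, the precursor of substance P, had 1330.2 and 1357 in 129 3DIV, against 752 and 786 in 129 normal (log2 difference 0.81 ± 0.07, adjusted p = 1.2e-05), and Ndnf, a secreted neurotrophic factor, was higher by 0.77. Gad1, which makes GABA, and Slc6a9, the glycine transporter, fell by 0.47 and 0.54, whereas Gad2, the other GABA synthase, was at -0.18 (adjusted p = 0.084). Of 9 horizontal cell genes, 1 was higher and 4 were lower, and leaving out 1 of the 4 arrays left 1 or 2 lower. Prox1, a homeobox factor of horizontal and AII amacrine cells, fell by 0.44 (adjusted p = 0.021), and its call was lost when any 1 of the 4 arrays was left out (adjusted p = 0.053 to 0.12).

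Genes of ganglion cells, whose axons were cut, were lower more often than genes at large. Of 20 genes, 10 were lower (50%) and 4 were higher (20%), beside 17% and 19.1% of all genes. The share called higher was thus near that of all genes. The median was -0.32, and -1.06 with 2 higher and 18 lower after housekeeping centring. Rbpms, an RNA-binding protein that marks these cells, had 169 and 154 in 129 3DIV, against 354 and 364 in 129 normal (log2 difference -1.15 ± 0.10, adjusted p = 8e-06), and Pou4f1, the transcription factor also known as Brn3a, had 109.5 and 103 in 129 3DIV, against 242 and 257 in 129 normal (log2 difference -1.23 ± 0.14, adjusted p = 4.3e-05). Chrna6, a nicotinic receptor subunit, fell by 1.54, Nefh, the heavy neurofilament, by 1.45, Nrn1, the neurite growth factor neuritin, by 1.24, and Sncg, γ-synuclein, by 1.22. Thy1, a surface protein of the same cells, had 1136 and 1059 in 129 3DIV, against 1132 and 1141 in 129 normal, with overlapping groups (log2 difference -0.05 ± 0.08, adjusted p = 0.68). Of the higher members, Gap43, a growth cone protein, had 1088 and 1016 in 129 3DIV, against 293 and 311 in 129 normal (log2 difference 1.80 ± 0.07, adjusted p = 1.8e-08), and Slc17a6, their vesicular glutamate transporter, had 2037 and 2132 in 129 3DIV, against 1007 and 1031 in 129 normal (log2 difference 1.03 ± 0.10, adjusted p = 2e-05). Stmn2, a regulator of axonal microtubules, was higher by 0.51 and Opn4, melanopsin, by 0.39, and both were negative after housekeeping centring (-0.23 and -0.35).

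Genes of synaptic release and scaffold fell as a group, with 22 of 27 lower and 1 higher (median -0.55). Most of these falls were below 2-fold. Slc17a7, the vesicular glutamate transporter of photoreceptors and bipolar cells, had 283 and 351 in 129 3DIV, against 814 and 858 in 129 normal (log2 difference -1.41 ± 0.13, adjusted p = 1.4e-05). Cplx4, a ribbon synapse complexin, fell by 1.25, Cacna1f, the calcium channel of photoreceptor terminals, by 1.21, and Dlg4, the scaffold PSD-95, fell by 0.999. Snap25 and Vamp2, components of the fusion machinery that all neurons use, fell by 0.60 and 0.53. Syt1, the calcium sensor of release, fell by 0.23 (adjusted p = 0.021), a call that was lost without any 1 of the 4 arrays (adjusted p = 0.066 to 0.11). The gene that was higher, Gria1, an AMPA receptor subunit, had 349.9 and 350.5 in 129 3DIV, against 205 and 224 in 129 normal (log2 difference 0.71 ± 0.08, adjusted p = 7.9e-05) and -0.03 after housekeeping centring.

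Genes known from injured axons rose strongly. Of 17, 14 were higher, 10 of them by at least 2-fold, and 1 was lower (median 1.54, and 0.80 with 10 higher and 5 lower after housekeeping centring). Sprr1a, a small proline-rich protein that regenerating neurons make, had 1024 and 872 in 129 3DIV, against 32.6 and 32.8 in 129 normal, 28.9-fold higher (log2 difference 4.85 ± 0.13, adjusted p = 1.6e-09). Sox11, a transcription factor of growing neurons, had 966 and 899 in 129 3DIV, against 75.0 and 73.4 in 129 normal (log2 difference 3.65 ± 0.09, adjusted p = 9.7e-10), and Atf3, a stress-induced factor of the same programme, had 1629 and 1589 in 129 3DIV, against 436 and 239 in 129 normal (log2 difference 2.32 ± 0.21, adjusted p = 1e-05). The 129 3DIV arrays lay above 129 normal by far in each, although the 129 normal arrays differed between themselves for Atf3. Tubb6, a tubulin of growing and injured cells, was higher by 4.06, Ecel1, an endopeptidase of injured neurons, by 3.64, Gal, the neuropeptide galanin, by 3.55, and Jun by 2.07. The gene that was lower, Map3k12, is the kinase DLK that signals axon damage, with 544 and 529 in 129 3DIV, against 789 and 804 in 129 normal (log2 difference -0.57 ± 0.07, adjusted p = 8.4e-05), although another of its probe sets was called higher by 0.23. The rise of Tubb6 was larger than in B6 by 1.36, whereas Gal and Adcyap1, the neuropeptide PACAP, rose less (-0.56 and -0.71), Adcyap1 by 1.18 ± 0.09 in 129.

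Genes of resting Müller glia moved both ways. Of 28 genes of resting Müller glia, 11 were higher and 10 lower (median 0.07, and -0.67 with 7 higher and 17 lower after housekeeping centring). Glul, glutamine synthetase, which turns glutamate into glutamine, had 5325 and 5434 in 129 3DIV, against 11966 and 11972 in 129 normal (log2 difference -1.15 ± 0.07, adjusted p = 5.4e-07). Rlbp1, a retinoid carrier, had 4146 and 3936 in 129 3DIV, against 5741 and 5692 in 129 normal (log2 difference -0.50 ± 0.12, adjusted p = 0.0086), and this call was lost without 129 3DIV replicate 2 (adjusted p = 0.056). In both, the explants lay below the intact retinas. Abca8a, a lipid transporter, fell by 1.80, Slco1c1, a transporter of thyroid hormone, by 1.79, Car14, a membrane carbonic anhydrase, by 1.22, and Crb1, a polarity protein of the outer limiting membrane, by 1.17. Ptgds, prostaglandin D synthase, had 1119 and 988 in 129 3DIV, against 2138 and 4785 in 129 normal (log2 difference -1.60 ± 0.27, adjusted p = 0.00086), with -1.02 in the absence of 129 normal replicate 2. The genes that rose included the glial transcription factors. Sox2 had 2673 and 2509 in 129 3DIV, against 994 and 1051 in 129 normal (log2 difference 1.34 ± 0.08, adjusted p = 4.5e-07), and Sox9 had 362 and 325 in 129 3DIV, against 159 and 156 in 129 normal (log2 difference 1.13 ± 0.09, adjusted p = 3.7e-06). Slc1a3, the glutamate transporter GLAST, was higher by 1.38, and Aldh1a1, which makes retinoic acid, by 1.23. Crym, a thyroid hormone-binding protein, had 10347 and 9211 in 129 3DIV, against 748 and 607 in 129 normal (log2 difference 3.86 ± 0.11, adjusted p = 2.4e-09), and Cp, the copper ferroxidase ceruloplasmin, was higher by 3.26. The list also holds Spc24, a kinetochore protein of dividing cells, as a higher member, and its call was lost without 129 3DIV replicate 1 or 129 normal replicate 1. Fxyd1, a regulator of the sodium pump, and Abca1, the cholesterol exporter, did not pass in 129 (0.15 ± 0.08 and 0.09 ± 0.14, with -0.59 and -0.65 after housekeeping centring), and both differed from their B6 change (-1.10 and -1.14).

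Nearly all genes of reactive gliosis rose. Of 28 measured genes 27 were higher, each by at least 2-fold, and none was lower, with a median of 2.95. Lcn2, lipocalin 2, a secreted carrier of iron-binding compounds, had 5289 and 4303 in 129 3DIV, against 52.2 and 61.7 in 129 normal, 84.1-fold higher (log2 difference 6.39 ± 0.16, adjusted p = 9.7e-10). Gfap, the filament protein of reactive glia, had 241 and 263 in 129 3DIV, against 44.3 and 56.9 in 129 normal (log2 difference 2.33 ± 0.18, adjusted p = 2.5e-06), and other probe sets of the gene rose by 4.03 and 2.69. Vim, the filament vimentin, had 9284 and 9472 in 129 3DIV, against 2089 and 2639 in 129 normal (log2 difference 1.998 ± 0.10, adjusted p = 9.5e-08). Replicates were close in both groups for all 3 genes. Serpina3n, an acute phase protease inhibitor, had 1399.9 and 1360.2 in 129 3DIV, against 175 and 192 in 129 normal (log2 difference 2.91 ± 0.11, adjusted p = 1.8e-08), and Steap4, a metalloreductase, had 1447 and 1342 in 129 3DIV, against 14.8 and 19.7 in 129 normal (log2 difference 6.35 ± 0.18, adjusted p = 1.7e-09). Timp1, an inhibitor of matrix proteases, was higher by 4.72, Lgals3, the lectin galectin 3, by 3.88, S100a10, a partner of annexin, by 3.27, and Nes, the progenitor filament nestin, by 1.15. Of these, Edn2, Cebpd, Osmr, S100a10 and Nes rose more than in B6 (2.10, 1.42, 0.96, 0.58 and 0.82), and Timp1, Lgals3, Serpina3n, Bcl3 and Socs3 rose less (-1.59, -1.15, -1.03, -0.99 and -0.41). A larger rise was not always a higher level. Edn2 had 1405 and 1593 in 129 3DIV, against 2556 and 2576 in B6 3DIV. It had 36.9 and 48.8 in 129 normal, against 348 and 280 in B6 normal. Cebpd had 2426 and 2338 in 129 3DIV, against 2556 and 2636 in B6 3DIV. It had 88.3 and 101 in 129 normal, against 275 and 278 in B6 normal. The difference of Timp1 kept its call with 7 of the 12 arrays left out and that of Socs3 with none. The summed intensity of 6 astrocyte and optic nerve head genes was also higher, at 1386 and 1325 in 129 3DIV, against 698 and 738 in 129 normal. Of these 6, Gfap and Aldh1l1 (2.11) were higher, S100b fell by 1.24, and the myelin genes Mag, Mbp and Mog did not pass. The part of such cells in the gliosis result was not tested.

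Cytokines of the IL6 family signal through gp130 and STAT3, and most genes of this route were higher. Of 18, 13 were higher and 1 was lower (median 0.98, and 0.23 with 9 higher and 6 lower after housekeeping centring). Among the ligands, Lif had 260.0 and 234 in 129 3DIV, against 41.0 and 40.0 in 129 normal (log2 difference 2.60 ± 0.10, adjusted p = 1.4e-08), and Clcf1, a ligand of the ciliary neurotrophic factor receptor, was higher by 3.51. Il6 was low in both groups, with 54.1 and 40.2 in 129 3DIV, against 8.08 and 7.54 in 129 normal (log2 difference 2.58 ± 0.16, adjusted p = 6.2e-07). Ctf1, the ligand cardiotrophin, was the 1 lower member (-0.65). Of the receptors, Osmr, for oncostatin M, had 1134 and 1073 in 129 3DIV, against 76.7 and 82.9 in 129 normal (log2 difference 3.79 ± 0.09, adjusted p = 8.4e-10), and Il6st, which encodes gp130, was higher by 1.09. Stat3 had 1675 and 1964 in 129 3DIV, against 373 and 410.1 in 129 normal (log2 difference 2.21 ± 0.10, adjusted p = 4.5e-08). Socs3, the feedback inhibitor that STAT3 induces, had 2196 and 2168 in 129 3DIV, against 113 and 111 in 129 normal, 19.5-fold higher (log2 difference 4.28 ± 0.07, adjusted p = 7.5e-11). Both groups were tight and far apart for these genes. Cebpd, a transcription factor of the acute phase, was higher by 4.65, and Bcl3, a nuclear partner of NF-kappaB, by 2.67. In the endothelin pathway, by which photoreceptors signal to Müller glia, 3 of 6 genes were higher and 1 was lower (median 0.16, and -0.58 with 2 higher and 4 lower after housekeeping centring). Edn2, the ligand that stressed photoreceptors make, had 1405 and 1593 in 129 3DIV, against 36.9 and 48.8 in 129 normal (log2 difference 5.14 ± 0.14, adjusted p = 1.7e-09), and Ednrb, its receptor on glia, had 458 and 459.5 in 129 3DIV, against 141 and 161 in 129 normal (log2 difference 1.61 ± 0.09, adjusted p = 2.3e-07). The other ligands did not pass and overlapped between groups, with Edn1 at -0.04 ± 0.08 and Edn3 at -0.02 ± 0.12.

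The interferon-inducible genes had the highest median of any list. Interferons are secreted signals that induce antiviral and antigen-presenting genes. Of 38 measured interferon-inducible genes 37 were higher, 35 of them by at least 2-fold, and none was lower, with a median of 3.55. Gbp3, a guanylate-binding protein, had 2876 and 2732 in 129 3DIV, against 30.4 and 27.7 in 129 normal, 96.6-fold higher (log2 difference 6.59 ± 0.10, adjusted p = 7.5e-11). The antiviral proteins of the Ifit family bind foreign RNA. Ifit1 had 1845 and 1723 in 129 3DIV, against 24.3 and 21.0 in 129 normal (log2 difference 6.30 ± 0.11, adjusted p = 7.5e-11), Ifit3 was higher by 5.09, and Ifit2 by 3.45. Oasl2, related to the 2′-5′ oligoadenylate synthetases, had 893 and 898 in 129 3DIV, against 17.0 and 11.3 in 129 normal (log2 difference 6.02 ± 0.21, adjusted p = 7.3e-09). Iigp1, an immunity-related GTPase, had 1929.8 and 1624 in 129 3DIV, against 32.7 and 25.4 in 129 normal (log2 difference 5.94 ± 0.17, adjusted p = 2e-09). Each of these genes was dim in both intact retinas and far above that level in both explants. Usp18, which removes ISG15 from proteins, was higher by 5.75, Gbp2 by 5.05, Rsad2, the antiviral enzyme viperin, by 4.98, and the GTPases Igtp and Irgm1 by 4.91 and 4.65. Sensors of viral RNA and factors of the pathway were among them too, with Ifih1 (the sensor MDA5) higher by 4.21 and Irf1 by 3.03. Ifi202b, a DNA-binding protein of the interferon-inducible p200 family, had 653 and 613 in 129 3DIV, against 14.1 and 12.6 in 129 normal (log2 difference 5.57 ± 0.14, adjusted p = 8.5e-10). Ifi204 of the same family was low throughout, with 13.1 and 11.7 in 129 3DIV, against 6.34 and 8.64 in 129 normal (log2 difference 0.75 ± 0.18, adjusted p = 0.0078), and its call was lost without 129 3DIV replicate 1 or 129 normal replicate 1.

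Antigen presentation rose in the same explants, with 9 of 14 genes higher, each by at least 2-fold, and none lower (median 2.87, and 2.13 with 9 higher and 5 lower after housekeeping centring). Nlrc5, the transactivator of class I genes, had 715 and 703 in 129 3DIV, against 14.3 and 15.5 in 129 normal (log2 difference 5.57 ± 0.11, adjusted p = 2.6e-10). The class I heavy chains H2-K1 and H2-D1 were higher by 3.08 and 3.10, though these loci are close in sequence and their probe sets may not tell them apart. B2m, their light chain, had 4478 and 4340.0 in 129 3DIV, against 324 and 398 in 129 normal (log2 difference 3.62 ± 0.16, adjusted p = 3.7e-08). Tap1, which carries peptides into the endoplasmic reticulum, was higher by 4.96, and Psmb8 and Psmb9, subunits of the immunoproteasome, by 4.51 and 4.43. By the interaction, the rise was larger in 129 than in B6 for 22 interferon genes and 3 presentation genes. The 22 interferon genes rose more in 129, by 0.76 to 5.31, against 1.55% of probe sets with a higher interaction at large, and 1 rose less (Ifi204, -1.52). Of the presentation genes, Nlrc5, Psmb8 and Psmb9 rose more (1.05, 0.98 and 0.68). The largest was Ifi202b, where the 129 change exceeded that in B6 by 5.31 (adjusted p = 7e-07). As with gliosis, a larger rise was not always a higher level. Oasl2 had 893 and 898 in 129 3DIV, against 1050 and 1329 in B6 3DIV. Gbp3 was higher in 129, with 2876 and 2732 in 129 3DIV, against 980 and 970 in B6 3DIV. Both genes were lower on each 129 normal array than on each B6 normal array. Whether the explants of the strains differed in level over the 22 genes was not tested.

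**Figure D5:**
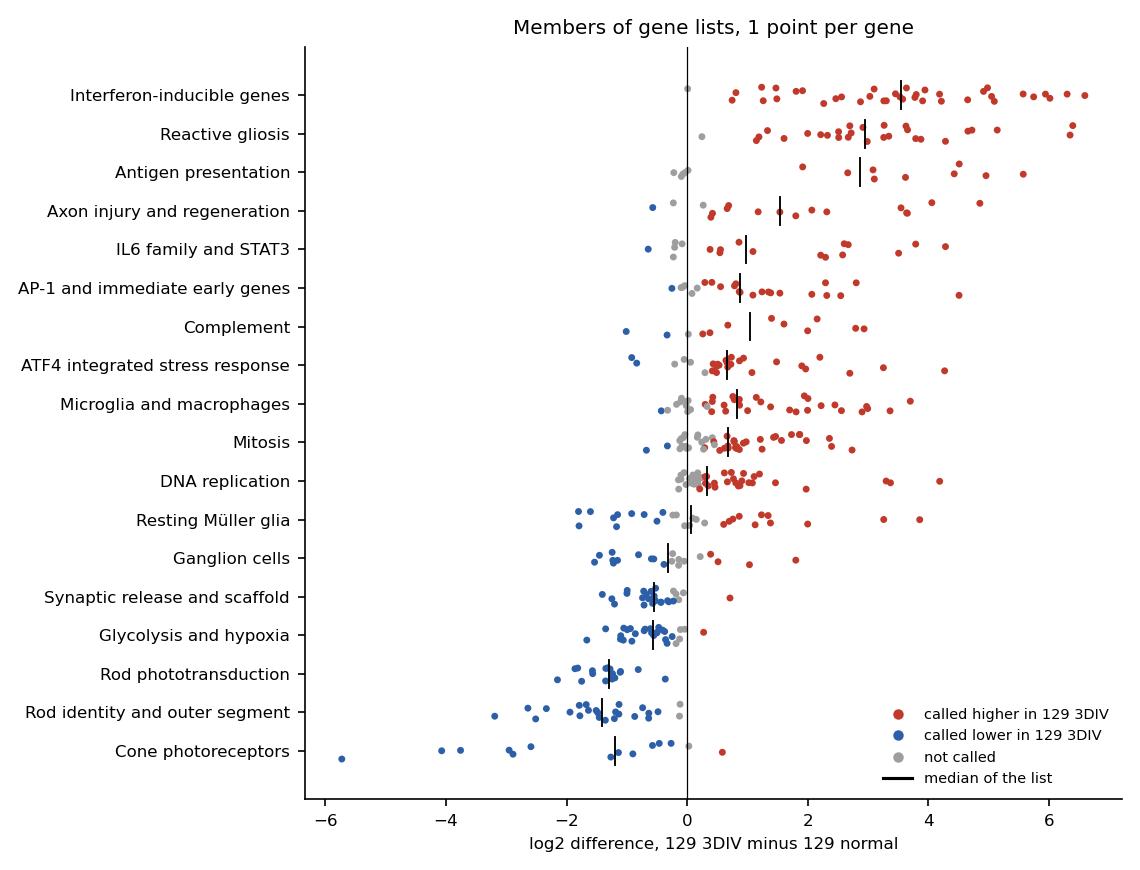
Log2 difference of 129 3DIV minus 129 normal (horizontal axis) for each measured gene of 18 lists, 1 point per gene, with genes called higher in red, called lower in blue and others in grey, and a black line at the median of the list. Of the interferon-inducible genes 35 of 38 and of the gliosis genes 27 of 28 lie above 1, and the rod genes lie wholly below 0.

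Interferon-stimulated genes often carry a short response element near their start, and its core of GAAA, any 2 bases (NN) and GAAA again was looked for on both strands in the same RefSeq windows (GRCm38.p6). It was in 1131 of 32851 windows (3.44%) and 1079 of 27025 genes (3.99%). Of the 38 measured interferon genes 29 had a window, and 16 of these (55.2%) held the motif, against 1 of 9 antigen presentation genes with a window (11.1%). The windows of the 5 interferon genes with the largest rise among those that hold it are shown, in the direction of the gene, with the motif in capitals, where overlapping matches run together. Binding was not measured. They are Gbp3 at chr3:142559794-142560093 (plus strand), Ifit1 at chr19:34640639-34640938 (plus strand), Ifit3 at chr19:34583279-34583578 (plus strand), Gbp2 at chr3:142620413-142620712 (plus strand) and Rsad2 at chr12:26456403-26456702 (minus strand).
Gbp3: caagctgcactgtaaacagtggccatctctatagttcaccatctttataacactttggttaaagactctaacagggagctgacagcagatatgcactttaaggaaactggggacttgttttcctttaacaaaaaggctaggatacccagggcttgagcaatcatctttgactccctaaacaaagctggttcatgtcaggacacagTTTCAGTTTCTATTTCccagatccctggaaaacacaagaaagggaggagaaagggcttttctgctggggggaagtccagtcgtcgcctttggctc
Ifit1: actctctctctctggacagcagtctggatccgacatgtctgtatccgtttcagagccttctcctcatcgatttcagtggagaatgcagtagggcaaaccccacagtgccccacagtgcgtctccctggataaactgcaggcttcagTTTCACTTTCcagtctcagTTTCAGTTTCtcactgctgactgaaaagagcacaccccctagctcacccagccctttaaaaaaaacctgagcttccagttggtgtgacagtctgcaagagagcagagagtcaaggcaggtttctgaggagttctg
Ifit3: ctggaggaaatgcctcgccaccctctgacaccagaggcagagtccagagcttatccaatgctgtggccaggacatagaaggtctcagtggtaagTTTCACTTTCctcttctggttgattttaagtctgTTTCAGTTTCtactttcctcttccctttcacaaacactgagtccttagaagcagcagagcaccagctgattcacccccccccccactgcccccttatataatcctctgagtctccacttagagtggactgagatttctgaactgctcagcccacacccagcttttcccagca
Gbp2: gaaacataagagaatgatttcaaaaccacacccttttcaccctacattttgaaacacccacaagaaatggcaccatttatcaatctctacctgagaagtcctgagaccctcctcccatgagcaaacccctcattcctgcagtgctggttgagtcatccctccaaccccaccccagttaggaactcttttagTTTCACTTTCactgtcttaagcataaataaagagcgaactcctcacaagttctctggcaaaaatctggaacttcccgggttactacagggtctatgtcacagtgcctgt
Rsad2: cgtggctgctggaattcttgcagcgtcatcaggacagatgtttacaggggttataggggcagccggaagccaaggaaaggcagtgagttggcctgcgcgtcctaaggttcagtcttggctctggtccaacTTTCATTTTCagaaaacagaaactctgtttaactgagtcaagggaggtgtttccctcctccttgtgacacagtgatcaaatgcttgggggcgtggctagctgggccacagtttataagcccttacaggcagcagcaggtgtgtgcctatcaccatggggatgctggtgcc

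Microglia and macrophage genes rose in part. Of 38, 27 were higher and 1 was lower (median 0.82, and 0.08 with 16 higher and 15 lower after housekeeping centring). Arg1, arginase of alternatively activated macrophages, had 221 and 149 in 129 3DIV, against 17.1 and 11.4 in 129 normal (log2 difference 3.70 ± 0.37, adjusted p = 2.2e-05). Msr1, a scavenger receptor, had 286 and 284 in 129 3DIV, against 28.6 and 26.8 in 129 normal (log2 difference 3.36 ± 0.13, adjusted p = 1.5e-08), and Cd68, a lysosomal glycoprotein, had 211 and 196 in 129 3DIV, against 23.6 and 31.5 in 129 normal (log2 difference 2.90 ± 0.15, adjusted p = 1.4e-07). These were low in intact retina and several-fold brighter in the explants on both arrays. Clec7a, the receptor dectin, was higher by 2.99, Lyz2, lysozyme, by 2.97, Fcgr3, a receptor for antibodies, by 2.56, and Cd14, a coreceptor for endotoxin, by 2.45. Other members changed by under 2-fold. Aif1, also called Iba1, had 26.0 and 24.5 in 129 3DIV, against 15.6 and 13.9 in 129 normal (log2 difference 0.78 ± 0.11, adjusted p = 0.00026), and Csf1r, the receptor that keeps microglia alive, had 438 and 447 in 129 3DIV, against 248 and 237 in 129 normal (log2 difference 0.87 ± 0.08, adjusted p = 9.9e-06). Cx3cr1, the fractalkine receptor, had 86.7 and 86.7 in 129 3DIV, against 64.5 and 64.7 in 129 normal (log2 difference 0.42 ± 0.11, adjusted p = 0.014), a call that was lost without any 1 of the 4 arrays (adjusted p = 0.056 to 0.063), as was that of Ctss, cathepsin S (0.30 ± 0.09), and both were negative after housekeeping centring (-0.32 and -0.44). Cd52, a surface glycoprotein of leukocytes, had 189.5 and 155 in 129 3DIV, against 177 and 154 in 129 normal, with overlapping groups (log2 difference 0.06 ± 0.13, adjusted p = 0.8). Olfml3, a secreted microglial protein, was at -0.01 ± 0.08 and Itgam, the integrin CD11b, at 0.33 ± 0.15. For 7 genes of the list the change lay below that in B6, namely Cd52 (-2.84), Lyz2 (-1.37), Clec7a (-1.11), Itgam (-1.06), Olfml3 (-1.04), Aif1 (-0.92) and Ctss (-0.62), and for Cd14 it lay above (0.83). The direction in 129 of Cd52 and Itgam turned after housekeeping centring (-0.68 and -0.41).

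Complement tags debris for uptake by microglia, and 9 of its 12 measured genes were higher and 2 lower (median 1.04, and 0.30 with 6 higher and 5 lower after housekeeping centring). C1qa had 306 and 287 in 129 3DIV, against 75.0 and 73.4 in 129 normal (log2 difference 1.998 ± 0.08, adjusted p = 1.9e-08), and C1qb and C1qc, which complete the initiator C1q, were higher by 2.79 and 2.16. Serping1, the inhibitor of the C1 proteases, had 1030.3 and 923 in 129 3DIV, against 104 and 157 in 129 normal (log2 difference 2.93 ± 0.19, adjusted p = 8.4e-07), and C1ra, a C1 protease, was higher by 1.60. Cd59a, which shields cells from lysis, fell by 1.01. Of 28 chemokines and cytokines 14 were higher and 2 lower (median 0.30, and -0.44 with 8 higher and 17 lower after housekeeping centring). Ccl6, a macrophage chemokine, had 653 and 515 in 129 3DIV, against 19.1 and 19.0 in 129 normal (log2 difference 4.93 ± 0.16, adjusted p = 4.9e-09). Ccl2, which draws monocytes, had 378 and 336 in 129 3DIV, against 40.2 and 28.7 in 129 normal (log2 difference 3.39 ± 0.20, adjusted p = 3.1e-07), and Ccl12, a mouse chemokine close to Ccl2, was higher by 3.85. Cxcl10, which interferon induces, had 123 and 109 in 129 3DIV, against 14.5 and 13.5 in 129 normal (log2 difference 3.05 ± 0.25, adjusted p = 4.9e-06). These 4 chemokines were all dim in intact retina. Ccl3 was higher by 2.71 and Csf1, the growth factor of microglia, by 2.60, whereas Tnfsf9, a ligand of the tumour necrosis factor family, fell by 0.54. Ccl4 was higher by 0.24, a call lost without any 1 of the 4 arrays (adjusted p = 0.061 to 0.23) and a direction lost after housekeeping centring (-0.50). The changes of Ccl3, Ccl7, Ccl9, Cxcl5 and Cxcl16 lay below those in B6 (-0.78, -1.11, -1.18, -1.25 and -0.59), of which Ccl7 and Ccl9 were higher in 129 by 0.79 and 0.71, and Cxcl5 and Cxcl16 did not pass (0.34 and -0.01). Ccl9 and Cxcl5 were negative after housekeeping centring (-0.03 and -0.40).

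NF-kappaB and C/EBP regulators were higher in 17 of 20 genes and lower in 1 (median 0.70, and -0.04 with 7 higher and 7 lower after housekeeping centring). The lower gene was Tnfaip3, which encodes A20, an inhibitor of NF-kappaB signalling, and it was singled out after its values were seen. It had 583 and 606 in 129 3DIV, against 3080.4 and 3074 in 129 normal (log2 difference -2.37 ± 0.11, adjusted p = 7.9e-08).

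Immediate early genes of the AP-1 and EGR families follow kinase signals within minutes, and most were higher at 3DIV. Of 24, 18 were higher and 1 was lower (median 0.87, and 0.13 with 10 higher and 8 lower after housekeeping centring). Egr2, a zinc finger factor, had 376 and 274 in 129 3DIV, against 11.9 and 16.8 in 129 normal (log2 difference 4.51 ± 0.17, adjusted p = 1.4e-08), and Egr1 had 4794 and 5041 in 129 3DIV, against 684 and 1037 in 129 normal (log2 difference 2.55 ± 0.20, adjusted p = 3.8e-06). Fosl1, an AP-1 subunit, had 260.2 and 263 in 129 3DIV, against 36.1 and 38.9 in 129 normal (log2 difference 2.80 ± 0.07, adjusted p = 9.7e-10). Both arrays of 129 3DIV lay above both of 129 normal in each. Junb was higher by 2.29, and Fos, the first known of the AP-1 subunits, had 1937 and 1993 in 129 3DIV, against 716 and 965 in 129 normal (log2 difference 1.24 ± 0.17, adjusted p = 0.00027). Fosb was low in both groups and higher by 0.55 (-0.19 after housekeeping centring), with the call lost without 129 3DIV replicate 1 or 129 normal replicate 2. Ier3, a stress-induced survival gene, was higher by 0.29 (adjusted p = 0.028), with the call lost without any 1 of the 4 arrays (adjusted p = 0.061 to 0.14) and -0.45 after housekeeping centring. Egr1, Fosl1 and Ier2 rose more than in B6 (1.67, 1.45 and 0.67, the last by 0.86 ± 0.09 in 129), and Ier3 rose less (-0.72).

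Most listed cell cycle genes were higher on the RMA scale. G1 regulators decide entry, and 14 of 23 were higher and 1 was lower (median 0.35, and -0.39 with 6 higher and 13 lower after housekeeping centring). Ccnd1, cyclin D1, had 1567 and 1789.9 in 129 3DIV, against 242 and 264 in 129 normal, 6.63-fold higher (log2 difference 2.73 ± 0.13, adjusted p = 8.3e-08). Ccnd2, cyclin D2, had 311 and 276 in 129 3DIV, against 57.4 and 111 in 129 normal (log2 difference 1.88 ± 0.23, adjusted p = 9.1e-05), and Ccnd3, cyclin D3, had 507 and 448 in 129 3DIV, against 290.4 and 308 in 129 normal (log2 difference 0.67 ± 0.10, adjusted p = 0.00047), or -0.07 after housekeeping centring. Myc, which drives growth, had 245 and 201 in 129 3DIV, against 55.1 and 48.6 in 129 normal (log2 difference 2.10 ± 0.18, adjusted p = 5.7e-06). Inhibitors moved both ways. Cdkn1a, the inhibitor p21 that p53 induces, had 487 and 483 in 129 3DIV, against 79.6 and 109 in 129 normal (log2 difference 2.38 ± 0.15, adjusted p = 6.5e-07), and Cdkn1c, the inhibitor p57, fell by 0.78. Cdkn2c, the inhibitor p18, was higher by 0.33 (-0.41 after housekeeping centring), with the call lost without any 1 of the 4 arrays, and Rb1, the retinoblastoma gene, was at -0.07 ± 0.09. The changes of Ccnd1, Myc and Cdkn2c exceeded those in B6 (1.39, 1.17 and 0.85), and those of Ccnd3 and Rb1 lay below (-0.85 and -0.55). The B6 change of Cdkn2c was -0.51.

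Of 43 DNA replication genes 25 were higher and none was lower, 9 of them by at least 2-fold (median 0.32, and -0.42 with 7 higher and 25 lower after housekeeping centring). Rrm2, the subunit of ribonucleotide reductase made in S phase, had 204 and 212 in 129 3DIV, against 10.1 and 12.9 in 129 normal (log2 difference 4.19 ± 0.18, adjusted p = 3.3e-08). Uhrf1, which carries DNA methylation through replication, had 103 and 119.7 in 129 3DIV, against 9.19 and 12.5 in 129 normal (log2 difference 3.37 ± 0.16, adjusted p = 8.2e-08). Of the helicase that opens origins, Mcm6 had 168 and 205 in 129 3DIV, against 17.6 and 20.2 in 129 normal (log2 difference 3.30 ± 0.17, adjusted p = 1.3e-07), and Mcm5, Mcm2, Mcm4 and Mcm3 were higher by 1.97, 1.08, 0.91 and 0.81. Explants and intact retinas did not overlap for these genes, and the share of all genes without overlap was not counted. Cdc6, which loads the helicase, was higher by 1.46, and Slbp, the histone mRNA-binding protein, and Lig1, the ligase that joins Okazaki fragments, by 0.46 and 0.30 (-0.28 and -0.44 after housekeeping centring). The call of Lig1 was lost without 129 3DIV replicate 2 or either 129 normal array. For 8 genes of the list the change exceeded that in B6, namely Mcm6 (2.02), Uhrf1 (1.97), Rrm2 (1.36), Cdc6 (1.05), Mcm2 (0.97), Mcm5 (0.94), Lig1 (0.52) and Slbp (0.50). Of these, only Mcm6 and Uhrf1 kept the call with each of the 12 arrays left out in turn. Lig1 kept it with 4 of them left out and Slbp with 1. The B6 change of Lig1 was -0.22, so its difference lay partly in a lower B6 value.

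Of 46 mitosis genes 28 were higher and 2 lower (median 0.67, and -0.07 with 11 higher and 18 lower after housekeeping centring). Mki67, the antigen Ki67 of cycling cells, had 131 and 133 in 129 3DIV, against 17.8 and 22.2 in 129 normal (log2 difference 2.73 ± 0.14, adjusted p = 1.5e-07). Top2a, the topoisomerase that parts chromosomes, had 194 and 185 in 129 3DIV, against 43.2 and 30.2 in 129 normal (log2 difference 2.39 ± 0.17, adjusted p = 1.8e-06), although another of its probe sets was called lower by 0.29. Cdk1, the kinase that starts mitosis, had 162 and 137 in 129 3DIV, against 36.9 and 45.1 in 129 normal (log2 difference 1.87 ± 0.17, adjusted p = 1.2e-05). Both explants lay several-fold above both intact retinas in these 3 genes. Birc5, survivin, was higher by 2.36, Bub1, a checkpoint kinase, by 1.98, and Nusap1, a spindle protein, by 1.73. Ect2, which sets the cleavage furrow, was lower by 0.68, a call lost without 129 3DIV replicate 2. The change of Nusap1, Melk and Spc25 exceeded that in B6 (0.96, 0.66 and 3.45). Melk, a kinase of dividing cells, and Spc25, a kinetochore protein, were higher in 129 by 0.82 and 0.78. The B6 change of Spc25 was -2.675, so most of its difference lay in the fall in B6. With genes at or below the median level left out, 12 of the mitosis genes were called higher.

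Retinal progenitor factors moved in part, with 8 of 19 higher (42.1%), 6 of them by at least 2-fold, and 3 lower (15.8%). Among all genes 19.1% were higher and 17% lower. The median of the list was 0.04, and -0.70 with 5 higher and 13 lower after housekeeping centring. Pax6 had 2326 and 2372 in 129 3DIV, against 2442 and 2520.0 in 129 normal, and Six3 was at -0.04 ± 0.11, neither past the test, nor was Six6 (0.20 ± 0.10, -0.54 after housekeeping centring). Hmga2, a chromatin protein of fetal cells, had 543 and 627 in 129 3DIV, against 42.5 and 49.1 in 129 normal (log2 difference 3.67 ± 0.21, adjusted p = 3.2e-07), and its rise exceeded that in B6 by 3.15. Msi1, an RNA-binding protein of stem cells that photoreceptors also make, fell by 1.52. Of the Notch pathway and proneural genes, 8 of 21 were higher (38.1%) and 4 lower (19%). Their median was 0.04, and -0.70 with 4 higher and 16 lower after housekeeping centring. Among the receptors, Notch1 had 731 and 715 in 129 3DIV, against 325 and 343 in 129 normal (log2 difference 1.11 ± 0.10, adjusted p = 1.2e-05), Notch4 was higher by 1.52, and Notch2 by 0.62 (-0.12 after housekeeping centring). Notch3 was low in both groups and lower by 0.27, with the call lost without either 129 3DIV array or 129 normal replicate 1. The ligand Jag1 had 699 and 772 in 129 3DIV, against 1999 and 1903 in 129 normal (log2 difference -1.41 ± 0.16, adjusted p = 7e-05). Of the targets, Hes5 fell by 1.27 while Hey2 was higher by 1.26. Neurog2, a proneural factor, had 227 and 209 in 129 3DIV, against 86.0 and 84.9 in 129 normal (log2 difference 1.35 ± 0.09, adjusted p = 6.7e-07), whereas Insm1, a zinc finger factor of newborn neurons, fell by 1.82. The change of Notch4 exceeded that in B6 (1.71).

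The integrated stress response raises ATF4 protein, whose targets make and import amino acids. Of 27 genes 21 were higher and 2 lower (median 0.66, and -0.08 with 7 higher and 11 lower after housekeeping centring). Nupr1, a stress-induced nuclear protein, had 4752 and 3768 in 129 3DIV, against 149 and 323 in 129 normal (log2 difference 4.27 ± 0.28, adjusted p = 7.3e-07). Eif4ebp1, which holds back translation, was higher by 3.25, and Chac1, which breaks down glutathione, had 228 and 217 in 129 3DIV, against 44.0 and 53.5 in 129 normal (log2 difference 2.20 ± 0.12, adjusted p = 2.1e-07). Atf4 mRNA itself overlapped between groups, with 3919 and 3918 in 129 3DIV, against 4152 and 3424 in 129 normal (0.06, and -0.69 after housekeeping centring). Ddit3, the factor CHOP, was higher by 0.66 (-0.08 after housekeeping centring), Stbd1, a glycogen-binding protein, by 0.67 (-0.07), less than in B6 (-0.58), and Trib3, a pseudokinase that CHOP induces, was at -0.21 ± 0.24. Ddit4, an inhibitor of mTOR that hypoxia also induces, fell by 0.92, and Vldlr, a lipoprotein receptor, by 0.84. Of 24 metallothionein and NRF2 genes 17 were higher and none was lower (median 0.53, and -0.22 with 8 higher and 11 lower after housekeeping centring). Mt2 and Mt1, which bind zinc, had 10232 and 9730.5 and 9017 and 8054 in 129 3DIV, against 1196 and 1327 and 1379 and 1621 in 129 normal (log2 differences 2.99 ± 0.13 and 2.51 ± 0.14). Hmox1, which breaks down haem, had 419 and 348 in 129 3DIV, against 36.6 and 38.7 in 129 normal (log2 difference 3.34 ± 0.20, adjusted p = 3.5e-07), and Srxn1, sulfiredoxin, was higher by 1.83. Mt3, the brain metallothionein, was higher by 0.45 (-0.29 after housekeeping centring), a call lost without replicate 1 of either group. Gpx3, a secreted peroxidase, was at 0.48 ± 0.31 in 129 and at -1.53 in B6, a difference of 2.01.

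Glycolysis and hypoxia genes fell, with 23 of 28 lower and 1 higher (median -0.57). Photoreceptors are the main glycolytic cells of the retina. Hk2, the hexokinase that photoreceptors use, had 915 and 1016 in 129 3DIV, against 2836 and 3295 in 129 normal (log2 difference -1.66 ± 0.10, adjusted p = 5.5e-07), whereas Hk1, the hexokinase of most cells, was at -0.12 ± 0.07 (adjusted p = 0.21). Aldoc, an aldolase, had 2814 and 2732 in 129 3DIV, against 6829.7 and 7335 in 129 normal (log2 difference -1.35 ± 0.08, adjusted p = 4e-07). Pkm, pyruvate kinase, fell by 1.05, and Vegfa and Bnip3, which hypoxia induces, fell by 1.06 and 1.11. The glucose transporters Slc2a1 and Slc2a3 fell by 0.51 and 0.36, with the call of Slc2a3 lost without 129 3DIV replicate 1 (adjusted p = 0.059). Of 37 genes of the mitochondrial respiratory chain 4 were higher and 4 lower (0 and 37 after housekeeping centring), a median of -0.01.

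Matrix and remodelling genes were higher in 20 of 39 and lower in 3 (median 0.37, and -0.37 with 12 higher and 19 lower after housekeeping centring). Mmp12, the macrophage elastase, had 248 and 228 in 129 3DIV, against 7.47 and 5.94 in 129 normal (log2 difference 5.16 ± 0.17, adjusted p = 4.2e-09). Cd44, the receptor for hyaluronan, had 2259 and 2155 in 129 3DIV, against 152 and 209 in 129 normal (log2 difference 3.63 ± 0.13, adjusted p = 1.2e-08). Matn2, a matrix adaptor, was higher by 2.72 and Adamts1, a protease of proteoglycans, by 1.86. Fn1, fibronectin, had 959.6 and 950.5 in 129 3DIV, against 387 and 398 in 129 normal (log2 difference 1.28 ± 0.08, adjusted p = 6.3e-07). None of 4 fibrillar collagens was called higher. Col1a2 had 161 and 166 in 129 3DIV, against 131 and 189 in 129 normal, with overlapping groups (0.06 ± 0.18, -0.68 after housekeeping centring), Col1a1 was low and fell by 0.28, a call lost without either 129 3DIV array or 129 normal replicate 2, and Col5a1 fell by 0.51. Col4a1, a basement membrane collagen, was higher by 0.37 (-0.37 after housekeeping centring), a call lost without either 129 3DIV array or 129 normal replicate 1. Adamts4 rose more than in B6 (1.14, 1.36 ± 0.10 in 129), and Timp1, Fn1 and Col4a1 rose less (-1.59, -0.84 and -0.74).

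Genes of pigmented epithelium and melanocytes were lower in 14 of 20 and higher in none (median -0.69). Rpe65, the isomerase of the visual cycle, had 27.7 and 28.7 in 129 3DIV, against 301 and 911 in 129 normal (log2 difference -4.22 ± 0.36, adjusted p = 6.4e-06). Ttr, the carrier transthyretin, had 69.5 and 69.5 in 129 3DIV, against 3369 and 8334 in 129 normal (log2 difference -6.25 ± 0.39, adjusted p = 6e-07). Rgr, a retinal G protein-coupled receptor, fell by 4.17, Lrat, which makes retinyl esters, fell by 2.94, Rdh5, a retinol dehydrogenase, by 2.27, and Slc6a20a, a proline transporter, by 2.97. The 129 normal replicate 2 was higher than replicate 1 in each, and without it the differences were -3.42 for Rpe65, -5.60 for Ttr, -3.46 for Rgr, -2.40 for Lrat, -1.91 for Rdh5 and -2.25 for Slc6a20a. In that setting the median of the list was -0.56. Pigment genes were dim. Dct, which melanin synthesis needs, had 38.7 and 43.1 in 129 3DIV, against 107 and 190.0 in 129 normal (log2 difference -1.81 ± 0.28, adjusted p = 0.00054), with -1.40 in the absence of 129 normal replicate 2. Tyr, tyrosinase, and Pmel, a melanosome fibre protein, fell by 0.50 and 0.32, with -0.28 and -0.31 in the same setting. Both calls were lost without 129 3DIV replicate 1 or 129 normal replicate 2, and that of Pmel also without 129 normal replicate 1 (adjusted p = 0.00038 to 0.064 for Tyr and 0.028 to 0.17 for Pmel when 1 of the 4 arrays was left out). These 3 genes fell less than in B6 (1.74, 1.15 and 0.75).

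The lens list was lower in 10 of 16 and higher in none (median -2.46), and the size of the fall depended on 129 normal replicate 2. Without it 8 were lower with a median of -0.60, and without replicate 1 there were 15 with a median of -4.31. Cryba1, a β-crystallin, had 14.9 and 16.7 in 129 3DIV, against 198 and 9856 in 129 normal (log2 difference -6.47 ± 1.22, adjusted p = 0.002). Cryaa, α-crystallin, had 36.3 and 35.7 in 129 3DIV, against 361 and 5421 in 129 normal (log2 difference -5.28 ± 0.85, adjusted p = 0.00069), and Crygs, a γ-crystallin, had 25.5 and 24.6 in 129 3DIV, against 143 and 5203 in 129 normal (log2 difference -5.10 ± 1.13, adjusted p = 0.0054). The intact replicates were 49.7-fold apart in Cryba1, 15.0-fold in Cryaa and 36.4-fold in Crygs. Without 129 normal replicate 2 the differences were -3.65, -3.33 and -2.51. That fit leaves 1 intact 129 array, so its p-values and counts take no spread from intact 129 retina. The lens sum of the remaining array (1481) was also above those of 129 3DIV and of both B6 groups. In B6 the median change of the list was -0.14. The part of left lens tissue in these falls was not tested. Cryba2 and Crygb were at -3.43 and -4.001 with all arrays, and at -1.35 and -1.57 without 129 normal replicate 2. They lost their calls without either 129 3DIV array (adjusted p = 0.075 and 0.068 without replicate 1). The count of lower members was 3 without 129 3DIV replicate 1 or 2, so that it ranged between 3 and 15 over the 4 arrays left out.

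Other lists moved to a lesser degree or are given by count alone, beside 19.1% higher and 17% lower among all genes. Of 33 p53 and cell death genes 19 were higher and 2 lower. Of 17 S100 proteins and annexins 13 were higher and 2 lower, of 23 cytoskeletal genes 16 and 2, and of 16 YAP and TEAD targets 10 and 1. Of 26 genes of the TGF-beta pathway 12 were higher and 3 lower, of 17 of the EGF family 8 and 0, of 17 of ERK feedback 10 and 4, and of 16 canonical Wnt targets 3 and 2. The FGF and IGF pathways had 5 higher and 8 lower of 20, with 5 to 7 lower when 1 of the 4 arrays was left out. Cholesterol synthesis and efflux had 2 higher and 14 lower of 27. Endoplasmic reticulum chaperones had 9 higher and 1 lower of 19. Heat shock proteins had 7 and 4 of 14, with 4 to 6 higher when 1 of the 4 arrays was left out. The circadian clock had 2 higher and 6 lower of 19, with 3 to 5 lower when 1 of the 4 arrays was left out. Chromatin factors had 4 higher and 5 lower of 17. Mbd1, a methyl-DNA-binding protein among them, did not pass in 129, with 775 and 774 in 129 3DIV, against 783 and 703 in 129 normal (0.06 ± 0.08, -0.68 after housekeeping centring). Endothelial and mural genes had 6 higher and 5 lower of 21, with 2 to 5 higher when 1 of the 4 arrays was left out. After housekeeping centring, median values that were positive turned negative for p53 and cell death (0.42 on the RMA scale, -0.32 centred), the cytoskeleton (0.59 on the RMA scale, -0.15 centred), YAP and TEAD targets (0.60 on the RMA scale, -0.14 centred), the TGF-beta pathway (0.27 on the RMA scale, -0.47 centred), the EGF family (0.19 on the RMA scale, -0.55 centred), ERK feedback (0.36 on the RMA scale, -0.38 centred), Wnt targets (0.06 on the RMA scale, -0.68 centred), chaperones of the endoplasmic reticulum (0.18 on the RMA scale, -0.56 centred), heat shock proteins (0.17 on the RMA scale, -0.57 centred), chromatin factors (0.07 on the RMA scale, -0.68 centred) and endothelial and mural genes (0.02 on the RMA scale, -0.72 centred).

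The same culture step was applied to B6 retina. The interaction compares changes, so a larger change in 129 need not mean a higher level there. Over all probe sets, the 129 change exceeded the B6 change in 696 (1.55%) and fell below it in 465 (1.03%). With 1 of the 4 arrays of 129 3DIV and 129 normal left out, these counts were 208 to 393 and 144 to 280. Interferon genes held 22 such members in the higher direction and 1 in the lower, DNA replication 8 and 0, mitosis 3 and 0, microglia and macrophages 1 and 7, and chemokines and cytokines 0 and 5. Gliosis was split, at 5 and 5. For the photoreceptor lists the strain term was called for 2 of 18 rod phototransduction genes and 2 of 24 rod identity genes, all lower. Mbd1 differed by -1.34 (adjusted p = 0.00029), Hmga2 by 3.15 (adjusted p = 0.0006) and Ccnd1 by 1.39 (adjusted p = 0.0044). Of the 97 named genes with a called difference from B6, 41 kept the call with each of the 12 arrays left out in turn, 50 kept it with between 2 and 10 of them left out, Gal, Cxcl16, Slbp, Rb1 and Col4a1 with 1 and Socs3 with none, and all 97 kept their direction.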

How the data were processed

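Total RNA of whole neural retina was hybridised to Affymetrix Mouse Genome 430 2.0 arrays, and the authors deposited RMA intensities, 1 per probe set, normalised between arrays. Neither the software that ran RMA nor its version is given in the sources used here. The design had assumed log2 values, but the intensities were linear and were taken to log2. Of 45101 probe sets 64 controls were left out, no filter was applied, and 34945 had 1 gene symbol in the platform annotation, covering 18193 genes. Probe sets with several symbols (932) or none (9160) were counted but not named, and a gene was represented by its probe set of highest mean across the 12 arrays.

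Groups came from the labels. With limma (version 3.58.1, R version 4.3.3), a model with 6 group means was fitted to the log2 values of the 12 arrays, which leaves 6 residual degrees of freedom, beside 4.69 prior ones from eBayes. P-values were adjusted with Benjamini-Hochberg over all probe sets within a comparison. The steps were tested on simulated data. Replicate numbers did not pair the arrays.

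Members, the 51 gene lists and genes were chosen with earlier results of these data known. For each list described, the first 3 measured genes and up to 6 called genes per direction with the largest change were named, beside the 10 genes with the largest rise and the 10 with the largest fall, members whose change differed from that in B6, and genes in the text of the paper. Other probe sets are mentioned where they disagree in sign and are called. Alternatives were replicate number as a block, only the compared arrays, a filter on level, cyclic loess, housekeeping centring, eBayes with trend and robust, another probe set rule, and each array left out. Promoter windows are from RefSeq (GRCm38.p6). Plots used matplotlib (version 3.10.9) under Python (version 3.11.15).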

Additional observations from a re-analysis of the deposited data

Results flagged for a closer look

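Of the 272 genes chosen for naming, 97 had a 3DIV minus normal change that differed between 129 and B6. The limma interaction test was used, with Benjamini-Hochberg adjustment over all probe sets, and 60 changes were higher and 37 lower in 129. List members were named in part because of this call, so these counts follow from the choice and give no share. Over all probe sets the interaction was called higher in 1.55% and lower in 1.03%. The values below are the 129 change minus the B6 change on the log2 scale. With each of the 12 arrays left out in turn, 97 kept their direction and 41 kept the call every time. For the rod lists the difference was -0.75 for Cngb1, -1.04 for Gucy2e, -1.36 for Samd11 and -0.53 for Rd3. Among the lists of ganglion, bipolar, amacrine and horizontal cells it was -0.62 for Stmn2, 0.52 for Opn4, -0.50 for Scgn and -0.84 for Prox1. In axon injury it was 1.36 for Tubb6, -0.56 for Gal and -0.71 for Adcyap1. Within resting Müller glia it came to -1.10 for Fxyd1 and -1.14 for Abca1. For gliosis and the IL6 family the difference was -1.03 for Serpina3n, 2.10 for Edn2, -1.59 for Timp1, 1.42 for Cebpd, -0.41 for Socs3, -1.15 for Lgals3, 0.96 for Osmr, 0.58 for S100a10, -0.99 for Bcl3, 0.82 for Nes and 1.53 for Il6. Among interferon-inducible genes it was 1.69 for Ifit1, 0.82 for Ifit2, 1.38 for Ifit3, 2.48 for Gbp3, 2.23 for Oasl2, 1.64 for Iigp1, 1.55 for Usp18, 5.31 for Ifi202b, -1.52 for Ifi204, 1.18 for Gbp2, 1.11 for Rsad2, 1.48 for Igtp, 1.12 for Irgm1, 1.19 for Ifih1, 0.82 for Parp9, 0.98 for Dtx3l, 1.12 for Ddx60, 0.88 for Parp14, 1.26 for Ifi47, 0.95 for Trim21, 1.62 for Mx2, 0.99 for Irf1 and 0.76 for Trim25. In antigen presentation it was 1.05 for Nlrc5, 0.98 for Psmb8 and 0.68 for Psmb9. Within microglia and complement it came to -0.92 for Aif1, -1.11 for Clec7a, -1.37 for Lyz2, 0.83 for Cd14, -1.06 for Itgam, -0.62 for Ctss, -2.84 for Cd52, -1.04 for Olfml3 and -0.53 for C1qa. For chemokines the difference was -0.78 for Ccl3, -1.11 for Ccl7, -1.18 for Ccl9, -1.25 for Cxcl5 and -0.59 for Cxcl16. Among immediate early genes it was 1.45 for Fosl1, 1.67 for Egr1, 0.67 for Ier2 and -0.72 for Ier3. In DNA replication it was 0.97 for Mcm2, 1.36 for Rrm2, 1.97 for Uhrf1, 2.02 for Mcm6, 0.94 for Mcm5, 1.05 for Cdc6, 0.50 for Slbp and 0.52 for Lig1. Within mitosis it came to 0.96 for Nusap1, 0.66 for Melk and 3.45 for Spc25, whose B6 change was -2.675. For G1 regulators the difference was 1.39 for Ccnd1, -0.85 for Ccnd3, 1.17 for Myc, 0.85 for Cdkn2c and -0.55 for Rb1. Among stress responses it was -0.58 for Stbd1 and 2.01 for Gpx3. In Notch and progenitor factors it was 1.71 for Notch4 and 3.15 for Hmga2. Within matrix it came to -0.84 for Fn1, 1.14 for Adamts4 and -0.74 for Col4a1. For pigmented epithelium the difference was 0.75 for Pmel, 1.15 for Tyr and 1.74 for Dct. Among chromatin factors it was -1.34 for Mbd1. In genes of no list it was 1.57 for Rtp4 and 1.72 for Gbp7. Groups of 2 arrays were too small to look for single arrays by their gap to the others.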

How the results depend on the processing

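Centring on housekeeping genes gave 1321 probe sets higher and 41325 lower, 520 and 8221 of them by at least 2-fold, and in the interaction 337 higher and 5747 lower. In the same setting 29 named genes changed sign, with log2 differences of Abca1 (-0.65), Atf4 (-0.69), Ccl4 (-0.50), Ccl9 (-0.0347), Ccnd3 (-0.0685), Cd52 (-0.68), Cdkn2c (-0.41), Col1a2 (-0.68), Col4a1 (-0.37), Ctss (-0.44), Cx3cr1 (-0.32), Cxcl5 (-0.40), Ddit3 (-0.078), Fosb (-0.19), Fxyd1 (-0.59), Gnb3 (-0.16), Gria1 (-0.0309), Ier3 (-0.45), Itgam (-0.41), Lig1 (-0.44), Mbd1 (-0.68), Mt3 (-0.29), Notch2 (-0.12), Opn4 (-0.35), Pcp2 (-0.67), Six6 (-0.54), Slbp (-0.28), Stbd1 (-0.0691) and Stmn2 (-0.23). Under cyclic loess, the replicate block, the fit to only the compared arrays, trend and robust eBayes and the filter on level, the counts of the 129 change stayed within 1.5 times, and no named gene that was called changed sign. The interaction counted 1184 higher above the median level, and 1492 higher and 948 lower with trend and robust eBayes. When 1 array at a time was left out, the probe sets called higher ranged between 4979 and 6821, those called lower between 4869 and 7332, the interaction between 208 and 739 higher and between 144 and 432 lower, and 22 named genes lost or gained a call without 1 of the 4 compared arrays. With the replicate block, 6464 were higher and 6920 lower, 1317 and 784 by at least 2-fold, and the interaction had 580 and 387. The groups share replicate numbers only, since deviations of same-numbered arrays of 129 normal and 129 3DIV correlated at 0.0016. The causes of these shifts were not tested, except that the filter on level tests fewer probe sets and that leaving out an array leaves fewer samples. Precision is limited by 2 arrays per group, and low intensities carry no detection call.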
